A study of Mus musculus with 62 samples.

Results

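Hearts of mice given melanoma cells that cause cachexia (CAC) were compared with hearts of mice given melanoma cells that do not (NCAC), at 4 weeks after injection. The members are the 5 CAC and 5 NCAC heart libraries labelled week 4, chosen by their labels alone, out of 62 heart libraries from 3 arms at weeks 2, 4, 6 and 8. The comparison covered the 11680 genes that reached 1 TPM in 5 or more of these 10 libraries. TPM is a level per transcript length and library total, here rescaled so that the median gene matched between libraries. The mice were female and 2 months old. The labels give the strain as C57BL6/J whereas the study's design text names nude mice, which lack mature T cells. A mock-injected group (Con), also of 5 libraries at week 4, was the baseline without a tumour, and 1 of its libraries, in which 89.1% of the deposited TPM was mitochondrially encoded, was left out (scale factor 0.263, beside 0.843 to 1.22 in the other 61 libraries), so that Con had n = 4. CAC and NCAC mice both carried a melanoma, and the 2 groups differed in the injected cells as well as in wasting, so these cannot be told apart. The labels number the replicates and call them biological. P-values here reflect how far the libraries of a group differ.

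Cachexia is the wasting of muscle and fat seen with certain tumours, which feeding does not reverse. Cytokines released by tumour and host, among them interleukin-6, bind receptors that share the gp130 subunit and act through the transcription factor STAT3. In liver this signal drives the acute phase response, a rise of secreted proteins such as serpins, complement factors and lipocalin. The heart can lose mass in cachexia and can change its metabolism, its ion channels and its resident macrophages.

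The 10 libraries were of similar depth, 44.8 to 47.2 M reads, recovered from the steps between TPM values. Myh6 was high and the atrial marker Myl7 was near 0. Myh6, the main adult myosin heavy chain of the mouse heart, had 5838 ± 635 TPM in CAC and 6304 ± 185 TPM in NCAC hearts (SD, n = 5 each). Myl7, the atrial light chain, lay between 0 and 0.390 TPM in CAC and between 0 and 0.164 TPM in NCAC hearts. Sln was also near 0, between 0 and 0.0893 TPM in CAC and between 0 and 0.673 TPM in NCAC hearts. The list of atrial genes as a whole was not near 0. Its summed level lay between 576.19 and 1872.5 TPM in CAC and between 359.94 and 1414 TPM in NCAC hearts. A large part of that sum was Clu, a secreted chaperone on the list, with 313 to 647 TPM in CAC hearts. The share of atrial tissue in the libraries was not tested. Mitochondrially encoded genes took 51.96 to 55.6% of the deposited TPM in CAC hearts and 55.4 to 59.7% in NCAC hearts (exact permutation test, two-sided, p = 0.0159, n = 5 each), against 89.1% in the left-out mock library. The first principal component held 46.2% of the variance. On it CAC replicates 2 and 4 lay farthest from the NCAC libraries, at 35.0 and 22.9, with the other CAC libraries between -1.44 and 8.32 and the NCAC libraries between -20.6 and -9.20.

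At week 4, 784 genes were higher and 596 lower in CAC than in NCAC hearts, 11.8% of those tested (6.71% higher and 5.10% lower). The groups did not overlap for 788 genes higher (6.75%) and 595 lower (5.09%) in CAC. Only 70 of the rises and 35 of the falls exceeded 1 on the log2 scale, so most changes were small. The 15 largest rises with non-overlapping groups were Serpina3n, Mt2, Lcn2, Ccl8, Socs3, Itih4, Mt1, Mmp3, Clca3a1, Serpina3i, C4b, Apod, Ankrd1, Pacsin1 and Junb, with log2 differences of 5.14 to 1.85. The 15 largest falls were Apln, Prnd, Mylk4, Tgtp1, Rtn4r, Nes, Ccnd1, Avp, Meox1, Mest, Gbp3, Bex1, Mrgprh, Hr and Pcdh12, with log2 differences of -2.09 to -1.10. The smallest adjusted p belonged to Parm1 (named after its values were seen), a membrane protein first described in androgen-regulated prostate tissue, which had 119.6, 138, 114, 127 and 120.1 TPM in CAC replicates 1 to 5, against 57.2, 44.2, 53.8, 50.9 and 50.4 TPM in NCAC replicates 1 to 5. Every CAC heart was above every NCAC heart, and the libraries of each group lay close together (log2 difference 1.26 ± 0.07 SE, adjusted p = 4.83e-05). Differences here are of log2(TPM + 1), tested with limma and adjusted by Benjamini-Hochberg over all 11680 genes, with 0.05 as the threshold for a call. Over all genes the median difference was -0.0034. With TPM as deposited, without rescaling, the counts were 1364 higher and 210 lower (86.7% of calls higher, against 56.8% after rescaling), and without CAC replicates 2 and 4 they were 433 and 245. Leaving out 1 library at a time gave 493 to 878 higher and 307 to 748 lower genes. The higher count was over 1.5 times smaller without NCAC replicate 2, 4 or 5 (493 to 521), and the lower count without CAC replicate 2 or 4 or any of NCAC replicates 1 to 5 (307 to 381).

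**Figure D1:**
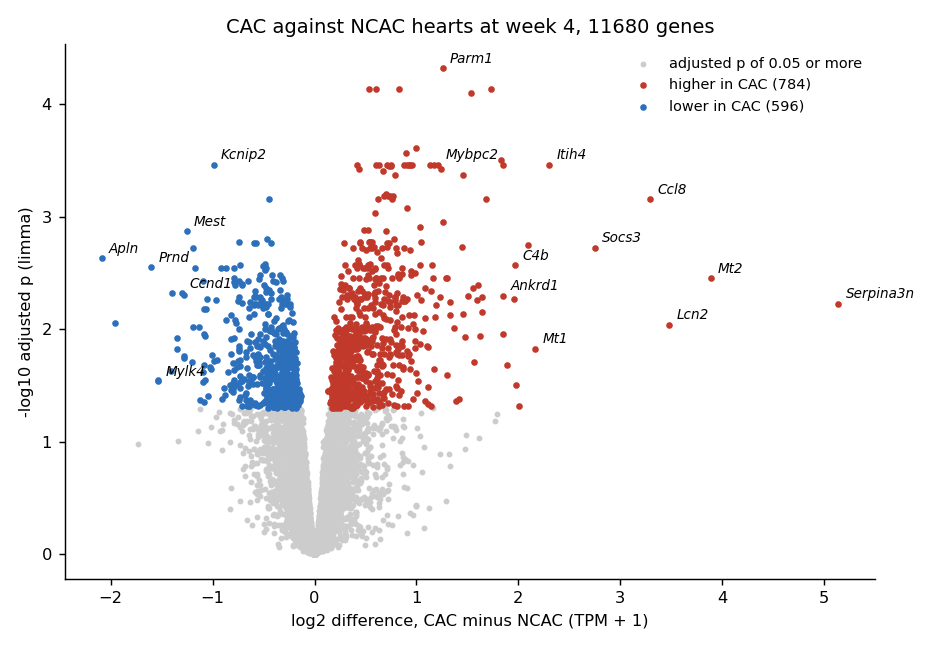
Each point is a gene, with the log2 difference of CAC minus NCAC on the x axis and -log10 of the limma adjusted p on the y axis. The 784 genes higher in CAC (red) reach 5.14 (Serpina3n), the 596 lower ones (blue) reach -2.09 (Apln), and Parm1 has the smallest adjusted p.

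Several secreted acute phase proteins rose strongly. Of 27 listed genes, 12 passed the filter on low values and 10 of these rose in CAC hearts, while 6.71% of all genes were called higher. A gene present in the 5 CAC hearts alone could pass this filter, so the count and the median difference of 1.62 over the 12 describe genes kept in part for being high in CAC. In the fit on the 42 CAC and NCAC libraries of all weeks, 17 were kept and 13 were higher at week 4, with a median of 0.94. CAC hearts of any week could meet that filter alone, so this count has the same limit. Without CAC replicates 2 and 4, 9 of the same 12 were called and their median was 0.94, again among genes kept in part for being high in CAC. Serpina3n, a secreted inhibitor of serine proteases (chr12:104406729-104414329, plus strand, mm10), had 36.95, 865, 50.3, 403 and 27.9 TPM in CAC replicates 1 to 5, against 1.83, 2.63, 1.02, 3.79 and 2.65 TPM in NCAC replicates 1 to 5. The levels in CAC replicates 2 and 4 stood far above those of the other CAC hearts, and all 5 CAC hearts stood above all NCAC hearts (log2 difference 5.14 ± 0.88 SE, adjusted p = 0.00596). Lcn2, which binds bacterial iron carriers, had 12.95, 128, 11.8, 31.1 and 6.16 TPM in CAC replicates 1 to 5, against 0.727, 1.18, 0.712, 2.03 and 0.575 TPM in NCAC replicates 1 to 5. For Lcn2 the log2 difference was 3.48 ± 0.65 (SE, adjusted p = 0.00909). Itih4, a heavy chain of the inter-alpha-trypsin inhibitor family, was steadier at 7.302, 14.9, 7.67, 13.98 and 7.46 TPM in CAC replicates 1 to 5, against 1.51, 1.32, 0.765, 0.863 and 1.58 TPM in NCAC replicates 1 to 5. For Itih4 the log2 difference was 2.30 ± 0.21 (SE, adjusted p = 0.000347). The complement genes C3 and C4b rose to 77.5 ± 21.7 and 17.1 ± 9.17 TPM in CAC hearts, against 28.6 ± 11.6 and 3.298 ± 0.838 TPM in NCAC hearts (SD, n = 5 each), with adjusted p of 0.00732 and 0.00271. In CAC replicate 2, C3 reached 116 TPM, against 65.3 to 71.3 TPM in the other CAC hearts. Serpina3i belongs to the same gene cluster as Serpina3n, and C4b has a near-identical neighbour, so reads may be shared between these copies. Hp (haptoglobin) narrowly missed the threshold at week 4 (1.93 ± 1.32 TPM in CAC and 0.611 ± 0.246 TPM in NCAC hearts, SD, n = 5 each, adjusted p = 0.051). It was called without CAC replicate 1 or 2, with TPM as deposited, with a pseudocount of 0.1, with array weights and in the voom fit on recovered reads (adjusted p down to 0.0338). Saa3 lay below the filter, at 0.420 to 5.54 TPM in CAC and 0 to 0.640 TPM in NCAC hearts. Without CAC replicate 4, NCAC replicate 2 or NCAC replicate 4, 6 acute phase genes were called instead of 10. Serpina3i lost its call without any of CAC replicate 4 and NCAC replicates 1, 2, 3, 4 and 5 (adjusted p up to 0.0706). Serpina3n and Lcn2 missed the threshold in a voom fit on recovered reads (adjusted p = 0.0541 and 0.0607), as did Serpina3i, Clca3a1, Myc and Atp1b1.

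The promoter windows of 4 of the largest rises are shown because these genes moved together. They are RefSeq sequence of build GRCm38.p6, 250 bases before to 50 after the annotated start, written 5′ to 3′ on the gene's strand, with every match of 1 motif in capitals. Capitals mark ACANNNTGT, a glucocorticoid receptor pattern, in Serpina3n (chr12:104406458-104406757), TTCNNNGAA, a STAT pattern, in Socs3 (chr11:117969317-117969616) and Itih4 (chr14:30886226-30886525), and TGCNCNC, the core of the metal response element, in Mt2 (chr8:94172368-94172667).
Serpina3n: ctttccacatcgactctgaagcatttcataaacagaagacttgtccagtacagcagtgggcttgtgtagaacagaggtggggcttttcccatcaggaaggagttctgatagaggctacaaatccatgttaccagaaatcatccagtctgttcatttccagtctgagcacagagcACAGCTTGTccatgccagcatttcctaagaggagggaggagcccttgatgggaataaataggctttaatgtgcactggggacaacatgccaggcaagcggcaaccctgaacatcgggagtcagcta
Socs3: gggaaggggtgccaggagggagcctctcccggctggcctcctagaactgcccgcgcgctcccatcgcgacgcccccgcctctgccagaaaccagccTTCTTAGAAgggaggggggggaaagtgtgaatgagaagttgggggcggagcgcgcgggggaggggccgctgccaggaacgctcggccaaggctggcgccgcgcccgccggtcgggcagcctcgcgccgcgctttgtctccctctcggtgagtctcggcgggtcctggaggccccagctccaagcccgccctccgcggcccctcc
Itih4: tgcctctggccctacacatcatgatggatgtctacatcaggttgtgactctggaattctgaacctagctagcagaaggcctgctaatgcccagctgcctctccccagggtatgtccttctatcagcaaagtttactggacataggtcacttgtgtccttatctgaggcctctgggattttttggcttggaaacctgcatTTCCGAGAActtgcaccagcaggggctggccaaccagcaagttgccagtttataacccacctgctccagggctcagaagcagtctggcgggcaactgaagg
Mt2: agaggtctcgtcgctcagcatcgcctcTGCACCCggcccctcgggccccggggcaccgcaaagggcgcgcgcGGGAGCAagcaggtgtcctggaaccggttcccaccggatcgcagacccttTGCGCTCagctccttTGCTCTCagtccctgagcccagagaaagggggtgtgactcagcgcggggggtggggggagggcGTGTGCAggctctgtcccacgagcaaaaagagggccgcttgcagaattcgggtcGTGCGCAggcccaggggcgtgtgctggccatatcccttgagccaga
Searched on both strands, the STAT pattern lay in 8.30% of 32851 RefSeq promoter windows, the glucocorticoid pattern in 6.85% and the metal response core in 51.0%. Among the 7 largest rises, the STAT pattern was found once each in Socs3 and Itih4 and the glucocorticoid pattern once each in Serpina3n, Lcn2 and Mt1. The metal response core was found 6 times in the Mt2 window and 3 times in that of Mt1, some of them downstream of the start, and once each in Ccl8, Socs3 and Itih4. Neither the E-box CACGTG nor the D-box TTANNTAA, patterns bound by clock proteins, was found in these 7 windows. These are matches of letters in a window, and binding was not measured.

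Genes of the IL-6 family and of STAT3 feedback rose in part. Of 28 listed genes 23 were tested, 8 rose and 2 fell, beside 6.71% and 5.10% of all genes, with a median difference of 0.45. Socs3, the feedback inhibitor that shuts off gp130 signalling, had 14.2, 50.1, 12.6, 34.1 and 11.99 TPM in CAC replicates 1 to 5, against 1.96, 2.19, 2.78, 1.83 and 2.41 TPM in NCAC replicates 1 to 5. For Socs3 the log2 difference was 2.75 ± 0.36 (SE, adjusted p = 0.0019). The 2 groups were far apart, and CAC replicates 2 and 4 were again the highest. Osmr, the oncostatin M receptor, had 6.96, 17.5, 8.25, 15.8 and 6.66 TPM in CAC replicates 1 to 5, against 2.87, 3.27, 2.36, 2.896 and 2.12 TPM in NCAC replicates 1 to 5. For Osmr the log2 difference was 1.60 ± 0.25 (SE, adjusted p = 0.00409). Stat3 itself had 41.3, 52.6, 47.5, 62.4 and 47.1 TPM in CAC replicates 1 to 5, against 34.9, 25.9, 32.5, 24.98 and 30.4 TPM in NCAC replicates 1 to 5. For Stat3 the log2 difference was 0.73 ± 0.12 (SE, adjusted p = 0.00497), with no overlap between groups. Bcl3, a nuclear member of the IkB family, and Junb, an AP-1 subunit, rose by 1.37 and 1.85 (adjusted p = 0.00983 and 0.0111). Transcripts of the cytokine itself were near 0, with Il6 at 0.0189 to 0.0916 TPM in CAC and 0 to 0.0591 TPM in NCAC hearts. The falls were those of the kinase Jak1 and the interleukin-11 receptor Il11ra1. Without rescaling 9 genes of this list were called higher and none lower, and without CAC replicates 2 and 4 there were 5 and none. Beside the same shares of all genes, none of 15 tested interleukin-1 and NF-kB feedback genes fell and 4 rose. They were Il1r1, the signalling receptor (7.09 ± 0.844 TPM in CAC and 3.72 ± 0.389 TPM in NCAC hearts, SD, n = 5 each, adjusted p = 0.000654), Irak3, an inhibitory kinase relative (log2 difference 0.60, adjusted p = 0.00353), Il18bp, a decoy that binds interleukin-18 (log2 difference 0.67, adjusted p = 0.00612), and the adaptor Myd88 (log2 difference 0.73, adjusted p = 0.0176). Without CAC replicate 1 the count was 7. Il1b lay at 0.632 to 1.76 TPM in CAC and 0.723 to 1.18 TPM in NCAC hearts, and Tnf at 0.0814 to 1.12 and 0.195 to 1.16 TPM, so both overlapped.

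The metallothioneins Mt1 and Mt2, which bind zinc and copper, rose strongly. Mt2 (chr8:94172664-94173568, plus strand, mm10) had 256, 1478, 405, 1116 and 153 TPM in CAC replicates 1 to 5, against 29.5, 57.9, 25.6, 34.996 and 20.7 TPM in NCAC replicates 1 to 5. For Mt2 the log2 difference was 3.89 ± 0.58 (SE, adjusted p = 0.00353). Mt1, its neighbour (chr8:94179082-94180327), had 529.6, 2406, 886, 2052 and 437 TPM in CAC replicates 1 to 5, against 218, 312, 193, 252 and 167 TPM in NCAC replicates 1 to 5. For Mt1 the log2 difference was 2.16 ± 0.45 (SE, adjusted p = 0.0149). Both genes were highest in CAC replicates 2 and 4, and the lowest CAC heart still exceeded the highest NCAC heart. The other 7 tested genes of metallothionein and zinc transport were not called, although 4 of the 9 were higher at an unadjusted p below 0.05 (limma). Calls numbered 4 with TPM as deposited, in the fit on 61 libraries and in that on 42, and 3 without CAC replicate 1, 2 or 5. Of 25 tested glucocorticoid target genes 3 rose, beside 6.71% of all genes, and these were Mt2, Lcn2 and Mt1, which the other lists also hold. Fkbp5, a co-chaperone of the glucocorticoid receptor and among its best known targets, had 13.1 ± 12.3 TPM in CAC and 7.201 ± 4.99 TPM in NCAC hearts (SD, n = 5 each) and did not pass the test (adjusted p = 0.58). None of 20 tested circadian clock genes was called by limma (3 higher at an unadjusted p below 0.05), with 0.0887 as the median difference. Dbp, a clock output factor, had 84.5 ± 32.6 TPM in CAC and 77.9 ± 24.5 TPM in NCAC hearts (SD, n = 5 each, adjusted p = 0.902). Arntl, which peaks opposite to it, lay between 0.277 and 2.39 TPM in CAC and between 0.503 and 9.53 TPM in NCAC hearts, with NCAC replicates 3 and 5 apart from the other NCAC hearts at 4.83 and 9.53 TPM. Of 22 immediate early genes Junb and Myc rose (log2 difference of Myc 0.96, adjusted p = 0.0416), and the other 20 did not pass the test. Of the 22 differences 19 were positive and 3 negative. Their median was 0.48, and -0.0028 without CAC replicates 2 and 4. In the fit on 42 libraries 5 were called higher at week 4, beside 8.43% of all genes. Myc lost its call without any of CAC replicates 3 and 4 and NCAC replicates 1, 2, 3, 4 and 5 (adjusted p up to 0.084).

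Macrophage genes rose together. Of 21 tested macrophage markers 16 were higher in CAC and none lower, with a median difference of 0.64, while 6.71% of all genes were called higher. Csf1r, the receptor for the macrophage growth factor CSF1, had 17.2, 17.1, 13.9, 16.1 and 15.6 TPM in CAC replicates 1 to 5, against 10.2, 9.7002, 8.36, 9.19 and 9.43 TPM in NCAC replicates 1 to 5. For Csf1r the log2 difference was 0.71 ± 0.07 (SE, adjusted p = 0.000347). Its groups did not overlap, and the 5 CAC hearts spanned a narrow range in which replicates 2 and 4 did not stand apart. Lyz2 (lysozyme) rose to 177 ± 10.9 TPM in CAC hearts, against 122 ± 10.6 TPM in NCAC hearts (SD, n = 5 each, adjusted p = 0.0017). Tyrobp, a signalling adaptor of myeloid receptors, and C1qa, a chain of complement C1q, rose by 0.60 and 0.86 (adjusted p = 0.0036 and 0.0056). The summed level of the macrophage list lay between 497 and 685 TPM in CAC and between 290 and 396 TPM in NCAC hearts. In libraries of heart tissue, more cells of a type and more RNA per cell cannot be told apart. Leaving out 1 library at a time left 11 to 15 of these calls, and without CAC replicates 2 and 4 there were 10.

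Chemokines that draw monocytes rose as well, with 8 of 17 tested ligands and receptors called higher and none lower, beside 6.71% and 5.10% of all genes. Ccl8 had 23.9, 39.1, 9.698, 33.9 and 15.01 TPM in CAC replicates 1 to 5, against 2.63, 1.43, 1.22, 1.42 and 0.421 TPM in NCAC replicates 1 to 5. For Ccl8 the log2 difference was 3.29 ± 0.36 (SE, adjusted p = 0.000706), and its groups were far apart. The neighbouring genes Ccl7 and Ccl12, which act on the monocyte receptor Ccr2, rose to 4.85 ± 0.7596 and 9.05 ± 2.68 TPM in CAC, against 2.395 ± 0.614 and 3.41 ± 1.21 TPM in NCAC hearts (SD, n = 5 each, adjusted p = 0.00522 and 0.00612). Ccl7 was not called in the fits on 61 and 62 libraries (adjusted p up to 0.164). The receptor Ccr1 rose by 0.86 (adjusted p = 0.00286). The count of 8 of 17 fell to 5 without CAC replicate 4 or NCAC replicate 1, 2, 3 or 5 and to 4 without NCAC replicate 4. The share of the macrophage rise in the chemokine and acute phase calls was not tested. Of the neutrophil list 4 genes were tested and Lcn2 alone rose, whereas S100a8 lay at 2.69 to 5.83 TPM in CAC and 1.96 to 6.14 TPM in NCAC hearts and Retnlg at 0.705 to 2.04 and 0.225 to 1.34 TPM. None of 8 tested B and plasma cell genes was called by limma (1 lower at an unadjusted p below 0.05). Of 16 T and NK cell genes only Gzma, granzyme A of cytotoxic lymphocytes, passed the filter, and it was called lower in CAC. It had 1.99, 0.157, 0.509, 0.659 and 1.12 TPM in CAC replicates 1 to 5, against 1.88, 2.03, 2.29, 2.27 and 2.501 TPM in NCAC replicates 1 to 5. For Gzma the log2 difference was -0.83 ± 0.21 (SE, adjusted p = 0.0316), with CAC replicate 1 inside the NCAC range. Gzma lost its call without any of CAC replicates 3 and 4 and NCAC replicates 1, 2, 3, 4 and 5 (adjusted p up to 0.0697). It was also not called with a pseudocount of 0.1, without the filter, in the fits on 61 and 62 libraries and without CAC replicates 2 and 4. The summed level of the 16 genes lay between 1.83 and 4.07 TPM in CAC and between 4.15 and 5.08 TPM in NCAC hearts. The T cell marker Cd3e lay at 0.0597 to 0.192 TPM in CAC and 0 to 0.241 TPM in NCAC hearts. Of the melanocyte list 2 genes were tested and neither was called. Among its pigment cell markers below the filter, Pmel, Tyr and Tyrp1 were at or near 0. Mlana, also below the filter and named after its values were seen, lay at 0.738 to 1.77 TPM in CAC and 0.0695 to 0.389 TPM in NCAC hearts.

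Genes induced by interferon-gamma moved the other way. Of 16 tested members 8 were lower in CAC and none higher, with a median difference of -0.61, while 5.10% of all genes were called lower. The summed level of the list overlapped between groups. It lay between 80.8 and 198.5 TPM in CAC (median 125.4) and between 129.5 and 240.6 TPM in NCAC hearts (median 135.0). Tgtp1, an interferon-induced GTPase, had 2.17, 3.11, 0.808, 1.44 and 2.13 TPM in CAC replicates 1 to 5, against 8.46, 5.73, 4.14, 7.78 and 6.87 TPM in NCAC replicates 1 to 5. For Tgtp1 the log2 difference was -1.39 ± 0.22 (SE, adjusted p = 0.00478). The guanylate-binding protein Gbp4 had 2.79, 1.104, 2.09, 2.39 and 3.79 TPM in CAC replicates 1 to 5, against 6.63, 5.54, 4.74, 6.87 and 6.19 TPM in NCAC replicates 1 to 5. For Gbp4 the log2 difference was -1.07 ± 0.19 (SE, adjusted p = 0.00657). Neither gene's groups overlapped. Gbp3 and Gbp5 fell by 1.195 and 0.65 on the log2 scale (adjusted p = 0.00962 and 0.00372). Tgtp1 has a near-identical copy, Tgtp2, and the Gbp genes are similar neighbours, so reads may be shared among them. The mock means lay between those of the other groups, with 3.24 ± 2.199 TPM for Tgtp1 and 4.199 ± 1.43 TPM for Gbp4 (SD, n = 4). CAC against mock hearts called none of this list (limma, 5 at an unadjusted p below 0.05), and neither did NCAC against mock hearts. The falls therefore rest on the comparison of CAC with NCAC. The summed level of T and NK cell genes, which includes Gzma, was also lower in every CAC heart than in every NCAC heart. The highest CAC sum, 4.07 TPM, nearly met the lowest NCAC sum, 4.15 TPM. The part of T and NK cell genes in these falls was not tested. Of 24 tested type I interferon genes Cmpk2, a mitochondrial nucleotide kinase, was called (log2 difference -0.85, adjusted p = 0.0241), and none of 16 MHC class I and antigen processing genes was called by limma (1 lower at an unadjusted p below 0.05), at a median difference of -0.24. The count of 8 became 5 without CAC replicate 4 or NCAC replicate 4, and 4 without CAC replicates 2 and 4. Cmpk2 lost its call without any of CAC replicate 4 and NCAC replicates 2 and 5 (adjusted p up to 0.0552).

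Genes of the contractile apparatus were called in small numbers and in both directions, and the classical stress markers were split. Ankrd1, a stress-responsive titin-binding protein, had 4422, 5806, 2961, 2599 and 2200.1 TPM in CAC replicates 1 to 5, against 786, 915, 792, 1738 and 716 TPM in NCAC replicates 1 to 5. For Ankrd1 the log2 difference was 1.85 ± 0.30 (SE, adjusted p = 0.00505), without overlap although NCAC replicate 4 stood above the other NCAC hearts. Mybpc2, the fast skeletal form of myosin-binding protein C, had 26.2, 29.7, 27.99, 25.9 and 21.1 TPM in CAC replicates 1 to 5, against 8.67, 13.1, 9.29, 10.7 and 12.2 TPM in NCAC replicates 1 to 5. For Mybpc2 the log2 difference was 1.21 ± 0.12 (SE, adjusted p = 0.000347), with every CAC heart above every NCAC heart. Actn1, a non-muscle alpha-actinin, was the third of 3 rises among 23 tested genes of cardiac stress (17.97 ± 3.61 TPM in CAC and 12.9 ± 0.727 TPM in NCAC hearts, SD, n = 5 each, adjusted p = 0.0372). The natriuretic peptide genes were not called. Nppa had 1031, 1018, 70.9, 172 and 113 TPM in CAC replicates 1 to 5, against 215, 45.9, 308, 1084 and 46.05 TPM in NCAC replicates 1 to 5 (adjusted p = 0.722), and Nppb averaged 245 ± 102 TPM in CAC and 156 ± 50.9 TPM in NCAC hearts (SD, n = 5 each, adjusted p = 0.268), so both overlapped widely. Of 30 tested sarcomere genes 2 rose and 2 fell, beside 6.71% and 5.10% of all genes, with a median difference of -0.12. Of the 30 differences 21 were negative and 9 positive, and 12 genes were lower and 4 higher at an unadjusted p below 0.05 (limma). Mylk4, a myosin light chain kinase family member, had 58.7, 16.3, 52.2, 25.2 and 21.3 TPM in CAC replicates 1 to 5, against 97.4, 118, 58.9, 149 and 61.6 TPM in NCAC replicates 1 to 5. For Mylk4 the log2 difference was -1.54 ± 0.38 (SE, adjusted p = 0.029), and the highest CAC heart nearly met the lowest NCAC heart. Muscle creatine kinase Ckm fell by 0.24 and the Z-disc genes Pdlim5 and desmin Des rose by 0.38 and 0.29 on the log2 scale (adjusted p = 0.0379, 0.0302 and 0.039). The myosin genes Myh6 and Myh7 were not called (adjusted p = 0.30 and 0.117), but Myh7 was called higher with TPM as deposited (adjusted p = 0.0251). Actc1, cardiac actin, had 6175 ± 1678 TPM in CAC and 9389 ± 1226 TPM in NCAC hearts (SD, n = 5 each) and narrowly missed the threshold (adjusted p = 0.0532). It was called lower without CAC replicate 1 or 5, with a filter of 5 TPM and with array weights. The muscle ubiquitin ligases Fbxo32 (atrogin-1) and Trim63 (MuRF1), markers of muscle wasting, were not called (log2 difference 0.25 and 0.15, adjusted p = 0.495 and 0.406). Actn1 lost its call without any of CAC replicates 2 and 3 and NCAC replicates 1, 2, 3, 4 and 5 (adjusted p up to 0.0781). Mylk4 lost its call without any of CAC replicates 2 and 4 and NCAC replicates 1, 2 and 4 (adjusted p up to 0.0686). Pdlim5 lost its call without any of CAC replicates 1, 2 and 4 and NCAC replicates 1, 2 and 3 (adjusted p up to 0.0717). Ckm lost its call without any of CAC replicates 2 and 4 and NCAC replicates 1, 2, 3, 4 and 5 (adjusted p up to 0.080). Des lost its call without any of CAC replicates 1, 3 and 4 and NCAC replicates 1, 2 and 4 (adjusted p up to 0.0838). With TPM as deposited 5 sarcomere genes were called higher and 1 lower, and without CAC replicates 2 and 4 none was called.

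**Figure D2:**
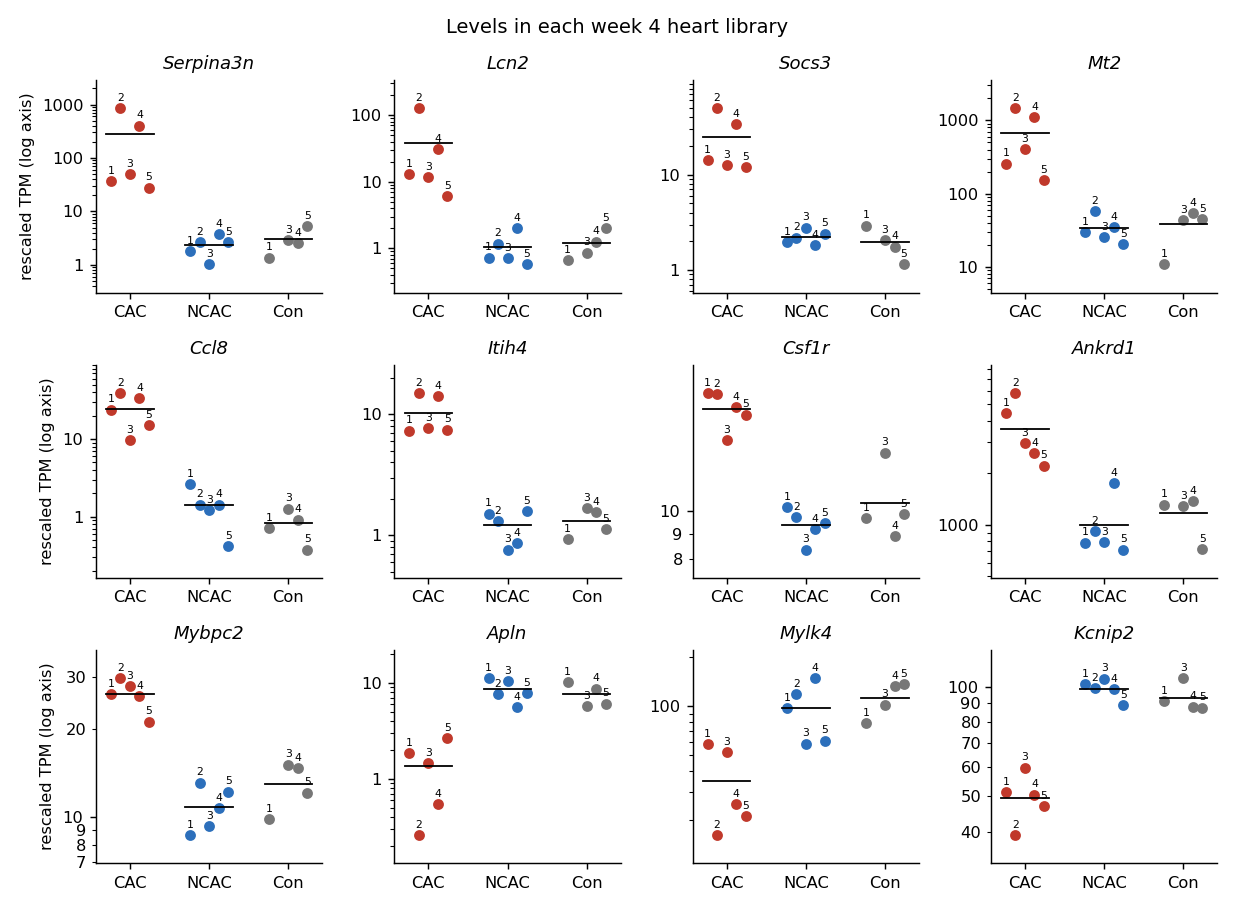
Each panel gives the rescaled TPM (log axis) of 1 gene in each week 4 library, with the replicate number above the point and the group mean as a bar, for CAC, NCAC and mock (Con, without the left-out library). CAC replicates 2 and 4 have the highest Serpina3n, at 865 and 403 TPM, whereas Csf1r and Mybpc2 differ little among the CAC hearts.

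Ion channel calls were mostly falls among potassium channels and mostly rises among sodium channels and connexins. Kcnip2 encodes KChIP2, the subunit that sets the transient outward potassium current of ventricular muscle (chr19:45791839-45816061, minus strand, mm10). It had 51.3, 39.2, 59.9, 50.5 and 47.1 TPM in CAC replicates 1 to 5, against 102, 99.2, 105, 98.5 and 88.8 TPM in NCAC replicates 1 to 5. For Kcnip2 the log2 difference was -0.99 ± 0.10 (SE, adjusted p = 0.000347), so that its level in CAC hearts was about 50.3% of that in NCAC hearts. Kcnq1, the pore of the slow delayed rectifier, had 28.7, 40.4, 28.4, 35.1 and 26.9 TPM in CAC replicates 1 to 5, against 15.8, 18.7, 21.1, 17.01 and 15.3 TPM in NCAC replicates 1 to 5. For Kcnq1 the log2 difference was 0.82 ± 0.12 (SE, adjusted p = 0.00339). The groups of both genes were apart. Of 21 tested potassium channel genes these and 5 others were called, with 1 rise (Kcnq1) and 6 falls, beside 6.71% and 5.10% of all genes. The falls included Kcnj5, a channel gated by acetylcholine receptors, and Kcnj12, an inward rectifier (log2 difference -0.53 and -0.34, adjusted p = 0.00521 and 0.014). Of 17 tested sodium channel, pacemaker and connexin genes 4 rose and 1 fell, beside the same shares of all genes. Gja1, connexin 43 of the gap junctions, had 407, 475, 367, 404 and 422 TPM in CAC replicates 1 to 5, against 241, 201, 359, 237 and 313 TPM in NCAC replicates 1 to 5. For Gja1 the log2 difference was 0.64 ± 0.14 (SE, adjusted p = 0.0188), and it was not called without CAC replicates 2 and 4 (adjusted p = 0.0845). The sodium pump subunit Atp1b1 rose by 0.22, and the pacemaker channel Hcn2 fell by 0.65 on the log2 scale (adjusted p = 0.0497 and 0.0319). The 6 potassium channel falls became 3 without CAC replicate 2 or NCAC replicate 2, 4 or 5, and 3 with TPM as deposited, where Kcnj12 was not called. The 4 rises of the second list became 2 without CAC replicate 1, NCAC replicate 1 or NCAC replicate 2, and 1 without CAC replicate 2 or NCAC replicate 5. Hcn2 lost its call without any of CAC replicates 2, 3 and 4 and NCAC replicates 2, 3 and 4 (adjusted p up to 0.0707). Atp1b1 lost its call without any of CAC replicates 1, 2 and 4 and NCAC replicates 1, 2, 4 and 5 (adjusted p up to 0.103).

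Calcium handling leaned downwards, with 5 falls and 1 rise among 21 tested genes and a median difference of -0.16. Over all genes 5.10% were called lower and 6.71% higher. Ryr2, the calcium release channel of the sarcoplasmic reticulum, had 154, 153, 159.7, 156 and 151 TPM in CAC replicates 1 to 5, against 172, 199, 192, 193 and 204 TPM in NCAC replicates 1 to 5. For Ryr2 the log2 difference was -0.31 ± 0.05 (SE, adjusted p = 0.00375). The fall was small but the libraries were tight and did not overlap. Hrc, a calcium-binding protein of the same store, and Jph2, which holds that store close to the surface membrane, fell by 0.33 and 0.42 (adjusted p = 0.0154 and 0.0219). Casq1, the skeletal form of calsequestrin, had 12.6, 3.72, 6.96, 10.8 and 6.92 TPM in CAC replicates 1 to 5, against 34.02, 33.6, 8.86, 27.7 and 27.1 TPM in NCAC replicates 1 to 5. For Casq1 the log2 difference was -1.53 ± 0.38 (SE, adjusted p = 0.0283), and NCAC replicate 3 lay among the CAC hearts. Before rescaling 2 of the falls were called, and Hrc and Jph2 were not. The count of 5 falls became 3 without CAC replicate 2 or 3 or NCAC replicate 1, 2 or 4, and 2 without NCAC replicate 5. Casq1 lost its call without any of CAC replicates 2 and 3 and NCAC replicates 1, 2, 4 and 5 (adjusted p up to 0.0673). Jph2 lost its call without NCAC replicate 5 (adjusted p = 0.0523).

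Endothelial genes were led by a loss of apelin. Apln (chrX:48025146-48034853, minus strand, mm10), the ligand of the G protein-coupled receptor Aplnr, had 1.84, 0.263, 1.46, 0.551 and 2.64 TPM in CAC replicates 1 to 5, against 11.1, 7.55, 10.4, 5.62 and 7.82 TPM in NCAC replicates 1 to 5. For Apln the log2 difference was -2.09 ± 0.28 (SE, adjusted p = 0.00234). All CAC hearts were below all NCAC hearts, and CAC replicates 2 and 4 were lowest. Aplnr had 10.4, 0.708, 6.51, 1.696 and 22.4 TPM in CAC replicates 1 to 5, against 26.6, 11.9, 23.4, 12.1 and 31.2 TPM in NCAC replicates 1 to 5. CAC replicates 2 and 4 were again the lowest and replicate 5 lay inside the NCAC range. The receptor was not called (log2 difference -1.73 ± 0.64 SE, adjusted p = 0.105), but it was without CAC replicate 5 and in the fit on 61 libraries. Prnd, which encodes the prion-like protein doppel, fell to 0.385 ± 0.367 TPM in CAC hearts, against 3.25 ± 1.17 TPM in NCAC hearts (SD, n = 5 each, adjusted p = 0.00281). Of 32 tested genes of endothelial identity and angiogenic factors 3 rose and 5 fell, beside 6.71% and 5.10% of all genes. Vwf, the clotting factor carrier made by endothelium, and Plvap, of fenestrae and caveolae, rose by 0.62 and 0.74, while the junction protein Pecam1 fell by 0.28 (adjusted p = 0.00455, 0.0165 and 0.0107). As deposited, 5 rose and 2 fell, and Pecam1 was not called. Without CAC replicate 5 there were 10 falls, and without CAC replicates 2 and 4 Plvap was not called (adjusted p = 0.0534).

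Matrix genes were called in small numbers and in both directions, beside 6.71% of all genes called higher and 5.10% lower. Mmp3, stromelysin, a protease of the matrix, had 2.99, 8.004, 4.92, 11.2 and 5.05 TPM in CAC replicates 1 to 5, against 0.699, 0.838, 0.426, 0.243 and 1.03 TPM in NCAC replicates 1 to 5. For Mmp3 the log2 difference was 2.09 ± 0.27 (SE, adjusted p = 0.00179). Timp1, which inhibits such proteases, and Adamts15, a protease of proteoglycans, rose by 0.94 and 0.76, and the membrane protease Mmp15 fell by 0.81 (adjusted p = 0.0227, 0.0254 and 0.0122), which were the calls among 18 tested proteases and inhibitors. Of 24 matrix and fibroblast genes 2 rose, Thbs2 and Dcn, and 1 fell, Postn. Postn, periostin of activated fibroblasts, had 2.998 ± 1.43 TPM in CAC and 7.22 ± 2.39 TPM in NCAC hearts (SD, n = 5 each, log2 difference -1.08 ± 0.26 SE, adjusted p = 0.0281), Thbs2, thrombospondin 2, rose by 0.85 (adjusted p = 0.0169) and the proteoglycan Dcn by 0.54 (adjusted p = 0.030). None of 20 collagen genes was called, at a median difference of -0.36, and 7 were lower at an unadjusted p below 0.05 (limma). Of the 20 differences 17 were negative, and 5 genes were called lower without CAC replicate 5 and 5 in the fit on 61 libraries, against none with TPM as deposited (median -0.27) or without CAC replicates 2 and 4 (median -0.15). Col1a1 had 17.8 ± 7.702 TPM in CAC and 22.8 ± 6.02 TPM in NCAC hearts (SD, n = 5 each, adjusted p = 0.352). Timp1 lost its call without any of CAC replicate 4 and NCAC replicates 2 and 4 (adjusted p up to 0.0548). Adamts15 lost its call without any of NCAC replicates 1 and 4 (adjusted p up to 0.0549). Postn lost its call without any of CAC replicate 3 and NCAC replicates 1, 2 and 5 (adjusted p up to 0.0606). Dcn lost its call without any of CAC replicate 4 and NCAC replicates 1, 2, 3 and 4 (adjusted p up to 0.0649).

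Cell cycle genes were lower in part, whereas growth genes were called in both directions. Over all genes 5.10% were called lower and 6.71% higher. Ccnd1, cyclin D1, which drives entry into the cell cycle, had 9.705, 4.42, 6.76, 5.81 and 10.99 TPM in CAC replicates 1 to 5, against 25.6, 17.8, 18.1, 19.5 and 15.8 TPM in NCAC replicates 1 to 5. For Ccnd1 the log2 difference was -1.30 ± 0.21 (SE, adjusted p = 0.00479), with no overlap. It was 1 of 4 falls and no rise among 12 tested cell cycle and replication genes, the others being Rrm2, which makes deoxynucleotides, and the replication helicase subunits Mcm5 and Mcm2 (log2 difference -0.60, -0.59 and -0.39, adjusted p = 0.00612, 0.00732 and 0.0182). Mest, an imprinted gene of growing tissue, had 2.005, 0.897, 1.46, 1.69 and 2.34 TPM in CAC replicates 1 to 5, against 5.096, 7.07, 5.06, 4.69 and 4.72 TPM in NCAC replicates 1 to 5. For Mest the log2 difference was -1.25 ± 0.15 (SE, adjusted p = 0.00134). In the imprinted growth network of 14 tested genes it fell, while H19, a non-coding RNA, Dcn and the zinc finger factor Plagl1 rose (log2 difference of H19 1.30 and of Plagl1 0.32, adjusted p = 0.0257 and 0.0462). Of 24 tested insulin and IGF signalling genes 3 rose and 2 fell, beside 6.71% and 5.10% of all genes. Irs1, an adaptor of the insulin receptor, and Sesn3, an inhibitor of mTORC1, fell by 0.74 and 0.37 (adjusted p = 0.00375 and 0.0323), and Eif4ebp1, which holds back translation, and the IGF-binding proteins Igfbp3 and Igfbp4 rose by 0.84, 0.72 and 0.50 (adjusted p = 0.0138, 0.0147 and 0.029). Mcm2 was not called without CAC replicates 2 and 4 (adjusted p = 0.0775). With TPM as deposited Mcm2 and Sesn3 were not called, and 5 insulin and IGF genes were called higher. H19 lost its call without any of CAC replicate 2 and NCAC replicates 2, 4 and 5 (adjusted p up to 0.0591). Plagl1 lost its call without any of CAC replicates 1, 2 and 4 and NCAC replicates 1, 2, 3, 4 and 5 (adjusted p up to 0.10). Igfbp4 lost its call without any of CAC replicate 2 and NCAC replicates 1, 3 and 4 (adjusted p up to 0.0658). Sesn3 lost its call without any of CAC replicate 4 and NCAC replicates 1, 2, 3, 4 and 5 (adjusted p up to 0.074).

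Metabolic genes had small differences at week 4, most of them negative in the tricarboxylic acid cycle and glucose lists, and 5.10% of all genes were called lower. Of 64 tested nuclear genes of the respiratory chain none rose and 3 fell, with a median difference of -0.016, which was positive with TPM as deposited (0.0779, with 2 rises). The falls were Cox7a1, the muscle form of a cytochrome oxidase subunit, Ndufs1 of complex I and Atp5g1 of the ATP synthase (log2 difference -0.32, -0.17 and -0.28, adjusted p = 0.0306, 0.0467 and 0.0475). Of 18 tricarboxylic acid cycle genes 5 fell (Idh3a, Dlst, Dld, Sucla2 and Mdh2), by 0.17 to 0.27 on the log2 scale (adjusted p = 0.00596 for Idh3a and 0.047 for Mdh2), and 1 was called with TPM as deposited. All 18 differences were negative and 11 genes were lower at an unadjusted p below 0.05 (limma), with a median of -0.14, and -0.043 as deposited. Of 13 mitochondrially encoded genes mt-Nd2 fell (log2 difference -0.30, adjusted p = 0.0455). All 13 differences were negative, with 6 genes at an unadjusted p below 0.05 and a median of -0.14, and -0.049 as deposited. Glucose metabolism held 5 falls and 1 rise among 29 genes, with 19 negative and 10 positive differences. Eno3, the muscle enolase of glycolysis, had 854, 834, 918, 748 and 854 TPM in CAC replicates 1 to 5, against 1083, 1094, 1165, 1147 and 1157 TPM in NCAC replicates 1 to 5. For Eno3 the log2 difference was -0.43 ± 0.05 (SE, adjusted p = 0.00171), with separate groups. Ldha, which makes lactate, had 502, 555, 509, 549 and 502 TPM in CAC replicates 1 to 5, against 457, 421, 424, 385 and 415 TPM in NCAC replicates 1 to 5. For Ldha the log2 difference was 0.32 ± 0.05 (SE, adjusted p = 0.00535), also with separate groups. Pkm and Pfkm, further glycolytic enzymes, fell by 0.31 and 0.27 (adjusted p = 0.00924 and 0.0126). Among 38 genes that PPAR factors control or that burn fatty acids, 4 were called higher and 1 lower, beside 6.71% and 5.10% of all genes. Plin2, which coats lipid droplets, had 33.5, 60.8, 35.6, 67.2 and 37.6 TPM in CAC replicates 1 to 5, against 23.9, 21.5, 25.1, 20.3 and 20.4 TPM in NCAC replicates 1 to 5. For Plin2 the log2 difference was 0.99 ± 0.19 (SE, adjusted p = 0.010), with the highest levels in CAC replicates 2 and 4. Cpt1a, which brings fatty acids into mitochondria, and lipoprotein lipase Lpl rose by 0.62 and 0.35 (adjusted p = 0.0415 and 0.0396), and the regulator Ppara fell by 0.46 (adjusted p = 0.0338). Pdk4, which blocks entry of pyruvate into the cycle, had 197, 635, 209, 931 and 169 TPM in CAC replicates 1 to 5, against 216, 166, 125, 157 and 282 TPM in NCAC replicates 1 to 5 and was not called (adjusted p = 0.249), nor was Angptl4 (adjusted p = 0.32). Among 19 hypoxia genes Ldha and Hif1a rose and Egln3, the oxygen-sensing hydroxylase, and Higd1a fell (log2 difference of Hif1a 0.58, of Egln3 -1.08 and of Higd1a -0.22, adjusted p = 0.0422, 0.011 and 0.0328). The falls of Pkm, Pfkm, Higd1a, Ppara, mt-Nd2, Cox7a1, Ndufs1 and Atp5g1 were not called with TPM as deposited.

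For these metabolic genes single libraries often decided the call. Cox7a1 lost its call without any of CAC replicates 2 and 4 and NCAC replicates 2, 3, 4 and 5 (adjusted p up to 0.0679). Ndufs1 lost its call without any of CAC replicates 2, 3, 4 and 5 and NCAC replicates 2, 3, 4 and 5 (adjusted p up to 0.102). Atp5g1 lost its call without any of CAC replicates 1, 2, 3, 4 and 5 and NCAC replicates 2, 3, 4 and 5 (adjusted p up to 0.102). mt-Nd2 lost its call without any of CAC replicates 2, 3, 4 and 5 and NCAC replicates 1, 2, 3, 4 and 5 (adjusted p up to 0.0935). Dld lost its call without any of CAC replicate 4 and NCAC replicates 2, 3, 4 and 5 (adjusted p up to 0.0647). Sucla2 lost its call without any of CAC replicates 2, 4 and 5 and NCAC replicates 2, 3, 4 and 5 (adjusted p up to 0.0792). Mdh2 lost its call without any of CAC replicates 1, 2, 4 and 5 and NCAC replicates 2, 3, 4 and 5 (adjusted p up to 0.0995). Cpt1a lost its call without any of CAC replicates 1 and 4 and NCAC replicates 1, 2, 3, 4 and 5 (adjusted p up to 0.0857). Lpl lost its call without any of CAC replicates 3 and 4 and NCAC replicates 1, 3, 4 and 5 (adjusted p up to 0.0871). Ppara lost its call without any of CAC replicates 1, 2, 3 and 5 and NCAC replicates 2, 3, 4 and 5 (adjusted p up to 0.078). Hif1a lost its call without any of CAC replicates 1, 2, 3 and 5 and NCAC replicates 1, 2 and 4 (adjusted p up to 0.0903). Higd1a lost its call without any of CAC replicates 2, 3 and 4 and NCAC replicates 2, 3 and 4 (adjusted p up to 0.0736). The 5 cycle falls became 3 without CAC replicate 2 or 5 and 2 without CAC replicate 4 or NCAC replicate 2, 3, 4 or 5. The 5 falls of glucose metabolism became 3 without NCAC replicate 2 or 4, and with TPM as deposited that list held 4 rises and 1 fall. The 4 rises of fatty acid genes became 7 with TPM as deposited, 2 without CAC replicate 3 or NCAC replicate 4, and 1 without CAC replicate 4 or NCAC replicate 1, 3 or 5.

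Cytoplasmic ribosomal protein genes were slightly higher. Of 76 genes 10 rose and none fell, beside 6.71% and 5.10% of all genes. The median difference was 0.15, and 74 of the 76 differences were positive. The smallest p-values belonged to Rps16, Rpl6, Rpl12 and Rpl39 (log2 difference 0.28, 0.17, 0.30 and 0.33, adjusted p = 0.0154, 0.0219, 0.0226 and 0.0226). Rpl3 had 54.8, 67.4, 48.2, 57.2 and 53.3 TPM in CAC replicates 1 to 5, against 46.8, 43.02, 43.5, 45.1 and 43.3 TPM in NCAC replicates 1 to 5. For Rpl3 the log2 difference was 0.33 ± 0.08 (SE, adjusted p = 0.0228), and its muscle-specific relative Rpl3l had 231 ± 18.5 TPM in CAC and 273 ± 24.1 TPM in NCAC hearts (SD, n = 5 each) and narrowly missed the threshold (log2 difference -0.24 ± 0.07 SE, adjusted p = 0.0504). Without rescaling 49 ribosomal protein genes were called higher, and without CAC replicates 2 and 4 there were 4. The count of 10 became 6 without CAC replicate 3 or 4, 3 without NCAC replicate 2, 2 without NCAC replicate 4 and 1 without NCAC replicate 5. Of 31 genes of translation factors and ribosome biogenesis 3 rose, beside 6.71% of all genes. They included Eif4e, which binds the messenger cap, and Eif4b, a helper of the helicase that unwinds it (log2 difference 0.43 and 0.31, adjusted p = 0.0134 and 0.0135). The third was Myc, a transcription factor also counted among the immediate early genes. Autophagy genes held 4 rises and 1 fall among 23, beside 6.71% and 5.10% of all genes. The lysosomal protease Ctsb, the lysosomal membrane protein Lamp2 and the autophagosome proteins Gabarap and Map1lc3b rose by 0.30, 0.46, 0.25 and 0.44 (adjusted p = 0.00271, 0.00457, 0.0101 and 0.0187), and the mitophagy kinase Pink1 fell by 0.33 (adjusted p = 0.0127), which was not called with TPM as deposited. None of 31 proteasome subunits (4 at an unadjusted p below 0.05, and 4 called higher with TPM as deposited) and none of 19 endoplasmic reticulum chaperones (2 at an unadjusted p below 0.05) was called by limma. Of 21 cytosolic heat shock genes 2 rose and 5 fell, beside 6.71% and 5.10% of all genes, with Ahsa1, Hspb6, Hspd1 and Dnajb4 having the smallest p-values (log2 difference -0.32, 0.51, -0.22 and 0.66, adjusted p = 0.00949, 0.0122, 0.0218 and 0.0303). Before rescaling none of these falls was called, and they numbered 1 to 3 on leaving out any single library other than CAC replicate 5. Hspb6 was not called without CAC replicates 2 and 4 (adjusted p = 0.0618). Rpl3 lost its call without any of NCAC replicates 2, 3 and 5 (adjusted p up to 0.0556). Rpl6 lost its call without any of NCAC replicates 2, 4 and 5 (adjusted p up to 0.0554). Rpl12 lost its call without any of NCAC replicates 4 and 5 (adjusted p up to 0.0562). Rpl39 lost its call without any of NCAC replicates 4 and 5 (adjusted p up to 0.0559). Hspd1 lost its call without any of NCAC replicates 2 and 3 (adjusted p up to 0.0514). Dnajb4 lost its call without any of CAC replicates 2 and 4 and NCAC replicates 1, 3 and 5 (adjusted p up to 0.0666).

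**Figure D3:**
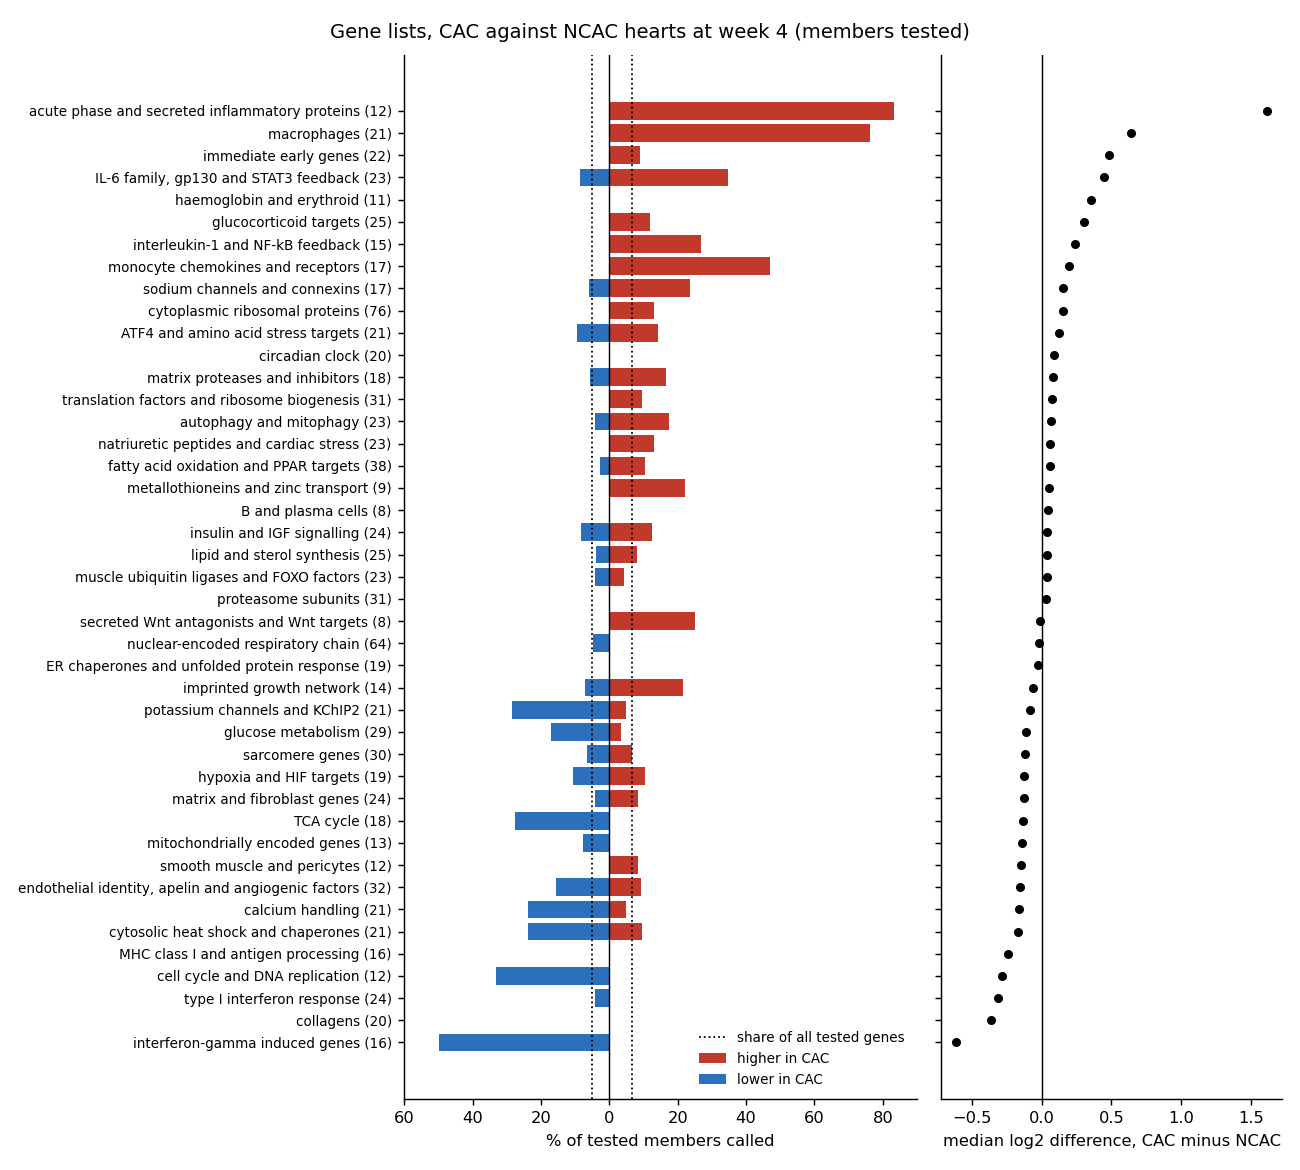
Left, the share of tested members of each gene list called higher (red) or lower (blue) in CAC, with the shares over all genes (6.71% and 5.10%) dotted, and right, the median log2 difference of CAC minus NCAC. Numbers in brackets are members tested, in lists with at least 8. Acute phase (10 of 12 higher, kept in part for being high in CAC) and macrophage genes (16 of 21) stand at the top and interferon-gamma genes (8 of 16 lower) at the bottom.

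The remaining genes among the 30 largest changes belong to no such list. Pacsin1, which shapes membranes in vesicle traffic, rose to 6.15 ± 2.03 TPM in CAC hearts, against 0.9297 ± 0.232 TPM in NCAC hearts (SD, n = 5 each, adjusted p = 0.000347). Apod, a lipid-carrying apolipoprotein, and the chloride channel regulator Clca3a1, which has a similar neighbour, had 22.2 ± 20.1 and 7.53 ± 10.5 TPM in CAC, against 4.01 ± 1.14 and 0.3301 ± 0.223 TPM in NCAC hearts (SD, n = 5 each, adjusted p = 0.0206 and 0.0484). Lower in CAC were Rtn4r, the Nogo receptor, at 4.898 ± 1.97 TPM in CAC and 13.7 ± 4.403 TPM in NCAC hearts (SD, n = 5 each), Nes, the intermediate filament nestin, at 6.28 ± 2.904 TPM in CAC and 16.6 ± 4.08 TPM in NCAC hearts (SD, n = 5 each), and Avp, vasopressin, at 4.31 ± 1.76 TPM in CAC and 11.6 ± 3.68 TPM in NCAC hearts (SD, n = 5 each). The transcription factor Meox1 and the endothelial protocadherin Pcdh12 fell by 1.28 and 1.10, the nuclear corepressor Hr by 1.13, the small adaptor protein Bex1 by 1.19 and the orphan receptor Mrgprh by 1.18 on the log2 scale (adjusted p = 0.0181, 0.0294, 0.00949, 0.0019 and 0.00285). Meox1 was not called without CAC replicates 2 and 4 (adjusted p = 0.0555). Clca3a1 lost its call without any of CAC replicates 1, 3 and 4 and NCAC replicates 1, 2, 3, 4 and 5 (adjusted p up to 0.0967). Pcdh12 lost its call without any of CAC replicate 4 and NCAC replicates 1, 2, 3, 4 and 5 (adjusted p up to 0.0654).

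The 5 CAC hearts were not alike. For Serpina3n the highest CAC heart exceeded the lowest 31.0-fold, and for Lcn2 20.8-fold, while for Parm1 the ratio was 1.21 and for Csf1r 1.24. CAC replicate 2 had the most Serpina3n, Lcn2, Mt2, Socs3, Osmr, Clu and Kcnq1 of the CAC hearts and the least Apln, Aplnr, Mylk4, Kcnip2, Mest and Ccnd1. Clu, a secreted chaperone listed among the atrial genes, had 313, 647, 319.6, 345 and 336 TPM in CAC replicates 1 to 5, against 129, 156, 114, 149 and 142 TPM in NCAC replicates 1 to 5. For Clu the log2 difference was 1.45 ± 0.19 (SE, adjusted p = 0.00185), and replicate 2 stood apart. CAC replicate 5 had the least Serpina3n, Lcn2, Mt2, Socs3 and Ankrd1 of the CAC hearts. Without replicates 2 and 4, 618 of the 1380 calls were kept, all in the same direction, at 3 CAC against 5 NCAC hearts.

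**Figure D4:**
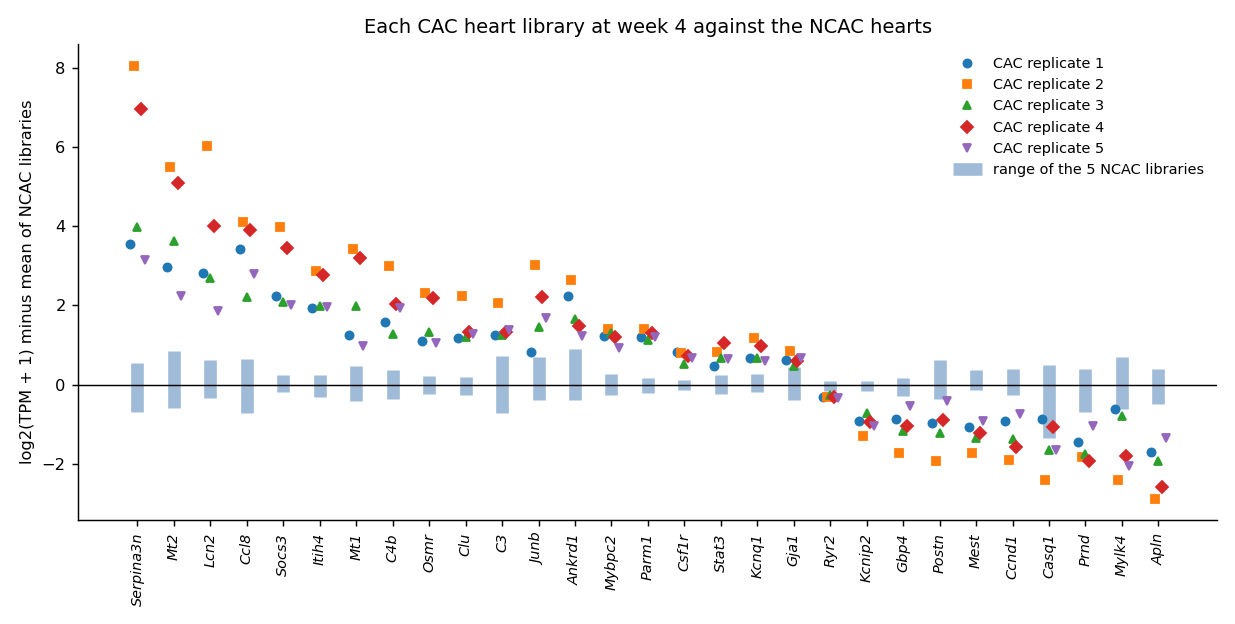
For 29 genes, each CAC heart's log2(TPM + 1) minus the mean of the NCAC hearts (symbols by replicate), with the range of the 5 NCAC hearts as a bar. CAC replicates 2 and 4 lie highest for Serpina3n, Mt2, Lcn2 and Socs3, whereas Parm1, Csf1r and Ryr2 differ little among CAC hearts.

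Mock hearts of the same week were the second reference. Set against the 4 usable mock hearts, CAC hearts had 827 genes higher (6.99%) and 696 lower (5.88%), together 12.9% of 11831 tested, whereas NCAC hearts had 1 called gene, a fall of Fmo5, a flavin-containing monooxygenase (0.00845%, and 185 genes at an unadjusted p below 0.05). These comparisons share libraries with each other and with that of CAC and NCAC, so their values are given side by side. With SD over n = 4 mock hearts, for Serpina3n the mock mean was 3.05 ± 1.63 TPM and CAC minus mock was 4.91 ± 0.84 SE, for Apln 7.67 ± 2.14 TPM and -1.96 ± 0.29 SE, for Kcnip2 93.1 ± 8.38 TPM and -0.90 ± 0.10 SE, and for Parm1 50.9 ± 3.34 TPM and 1.26 ± 0.07 SE on the log2 scale. Of the macrophage list 13 genes and of the acute phase list 10 genes were higher in CAC than in mock hearts, the latter kept in part for being high in CAC. With the left-out library kept, 516 genes were called for CAC against mock, and the count was 804 without mock replicate 4 and 922 without mock replicate 5.

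Whether the week 4 difference itself differed from that of other weeks was tested in a fit on the 42 CAC and NCAC libraries. Against week 2 no gene was called by limma (1516 at an unadjusted p below 0.05, and 4 called with array weights), and against week 6 none was called either (1365 at an unadjusted p below 0.05, and 384 called with array weights). Against week 8, 1452 genes were called (11.7% of 12388), 787 with a more positive and 665 with a more negative difference at week 4 (6.35% and 5.37%). In that fit 42 genes were higher (0.339%) and 11 lower (0.0888%) at week 2, and 1044 (8.43%) and 863 (6.97%) at week 4. At week 6 the counts were 2461 (19.9%) and 2396 (19.3%), against 3188 (25.7%) and 3091 (25.0%) at week 8. All called genes made up 0.428%, 15.4%, 39.2% and 50.7% of the 12388 tested at weeks 2, 4, 6 and 8. In the acute phase list, kept in part for being high in CAC, the difference was more negative at week 4 than at week 8 for 12 of 17 genes. In the macrophage list it was so for 15 of 22. Saa3, Serpina3h, Cxcl13 and Hp showed the most negative differences between weeks 4 and 8 among the called genes, at -3.77, -3.23, -3.02 and -2.57 on the log2 scale. Hp had 1.93 ± 1.32 TPM in CAC and 0.611 ± 0.246 TPM in NCAC hearts at week 4 and 26.3 ± 18.7 TPM in CAC and 1.05 ± 0.373 TPM in NCAC hearts at week 8 (SD, here and for the genes that follow over 5 hearts a group at week 4, and over 7 CAC and 5 NCAC hearts at week 8). Ccl8 and Itih4, already called at week 4, were also more negative than at week 8 (-2.29 and -1.59, adjusted p = 0.0126 and 0.0092), whereas for Serpina3n the test missed the threshold (-2.92, adjusted p = 0.0616).

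Many metabolic and muscle genes had another difference at week 4 than at week 8. Over all genes 6.35% were called with a more positive difference at week 4. The difference was more positive at week 4 for 55 of 64 nuclear respiratory chain genes, 14 of 18 tricarboxylic acid cycle genes, 23 of 38 fatty acid oxidation genes and 15 of 30 sarcomere genes. As deposited, these counts were 19, 7, 18 and 11, in a fit of the 2 weeks alone 22, 7, 22 and 5, and without CAC week 8 replicate 3 they were 61, 16, 26 and 20. Mylk4, Acta1 (skeletal actin), Retnla (a secreted macrophage protein) and Pdk4 had the most positive ones among the called genes, at 2.42, 2.58, 2.27 and 2.14 on the log2 scale (adjusted p = 0.00895, 0.0241, 0.0142 and 0.0111). Pdk4 had 428 ± 341 TPM in CAC and 189 ± 61.2 TPM in NCAC hearts at week 4 and 83.6 ± 22.3 TPM in CAC and 202 ± 57.99 TPM in NCAC hearts at week 8. Myh6 had 5838 ± 635 TPM in CAC and 6304 ± 185 TPM in NCAC hearts at week 4 and 3941 ± 1014 TPM in CAC and 6998 ± 586 TPM in NCAC hearts at week 8 (difference between weeks 0.75, adjusted p = 0.00675). Kcnip2 was already called at week 4 and was lower still at week 8, with 23.6 ± 13.6 TPM in CAC and 97.7 ± 17.5 TPM in NCAC hearts (difference between weeks 1.15, adjusted p = 0.0106). For Apln, Ccnd1, Mest, Parm1 and Ankrd1 the differences between weeks 4 and 8 were 0.33, 0.00, -0.54, -0.13 and -0.37, and none was called (adjusted p of 0.335 to 0.997). The count of 1452 was 940 without CAC week 4 replicate 1, 2548 without CAC week 8 replicate 3, 472 in a fit of the 2 weeks alone and 2909 with array weights.

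**Figure D5:**
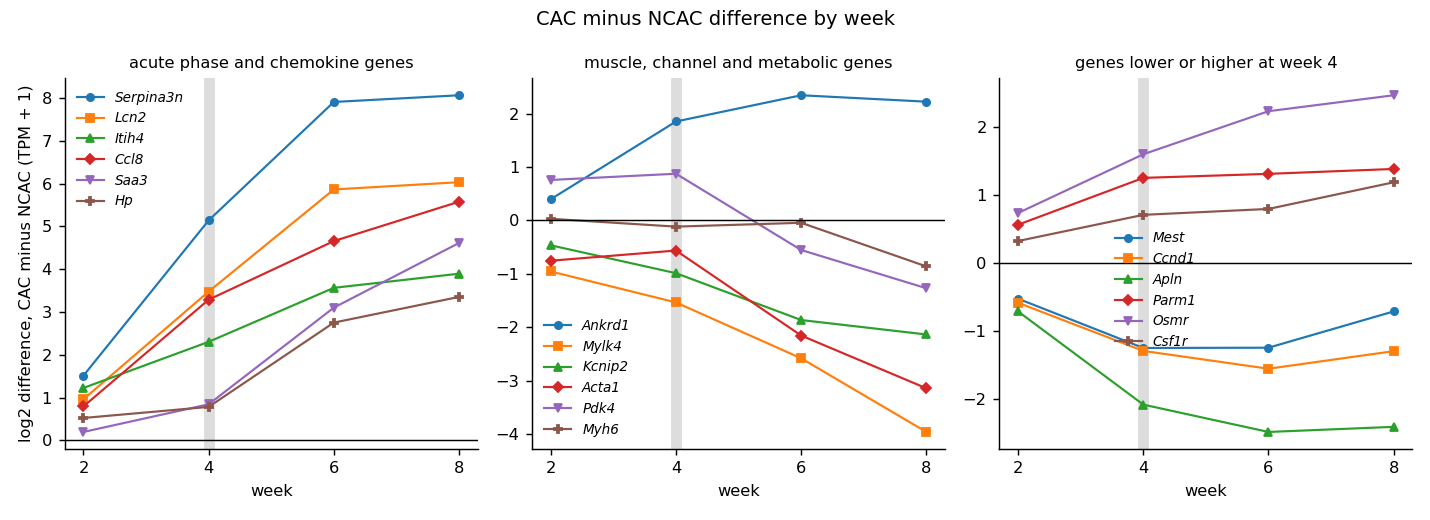
Lines give the log2 difference of CAC minus NCAC at weeks 2, 4, 6 and 8 for 18 genes, with week 4 shaded. Serpina3n stands at 5.14 at week 4 and 8.06 at week 8, Parm1 at 1.26 and 1.39, and Pdk4 at 0.87 and -1.27.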

How the data were processed

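RNA was measured by sequencing of heart tissue, and the authors deposited 1 table of TPM values for 62 libraries. Mouse build mm10 is named per the submitters' processing notes, and the aligner and quantifier are not given in the sources used here. Read numbers were recovered from the steps between low TPM values, 44.8 to 47.2 M reads in the 10 libraries, and set the precision of low genes. The deposited TPM of the 61 libraries other than the left-out mock library (89.1% mitochondrially encoded TPM) were rescaled by median of ratios over 11699 genes. The 11680 genes that reached 1 TPM in 5 or more of the 10 libraries were kept, so in any list a gene could pass on the 5 hearts of 1 group alone. Log2(TPM + 1) was fitted with limma 3.58.1 in R 4.3.3 (trend and Benjamini-Hochberg adjustment, threshold 0.05), so fold changes of low genes are understated. Differences between weeks came from 42 CAC and NCAC libraries, and mock comparisons from 14 libraries of week 4. Named genes were the 15 largest called rises and 15 largest falls with a group mean of at least 1 TPM and groups that did not overlap, without predicted genes and pseudogenes; for each gene list described, up to 4 members by p-value, or all called ones if at most 5 were called; the 4 largest called differences of each sign between weeks; and a panel of 22 heart, clock and wasting genes. Some genes that meet this rule are not reported here. Members and lists were chosen with earlier results of these data known. Gene positions are from GENCODE M21. The test was checked on simulated data with known answers. The alternatives tried were other scalings, pseudocounts, filters, weights, fits, a replicate block, recovered reads (chosen after seeing the data, as was leaving out CAC replicates 2 and 4 together) and leaving out each library.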

Additional observations from a re-analysis of the deposited data

Results flagged for a closer look

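Single libraries stood apart from the rest of their group in 5 of 90 groups of 5 examined, and chance gives such a gap in about 5% of groups. C3 reached 116 TPM in CAC replicate 2, against 65.3 to 71.3 TPM in the other CAC hearts, and Clu reached 647 TPM in the same heart, against 313 to 345 TPM. In NCAC hearts Ankrd1 was high in replicate 4 (1738 TPM, against 716 to 915 TPM in the others), Casq1 was low in replicate 3 (8.86 TPM, against 27.1 to 34.0 TPM) and Mest was high in replicate 2 (7.07 TPM, against 4.69 to 5.10 TPM).

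The difference of CAC minus NCAC was not the same at weeks 4 and 8 for 14 of 24 genes set side by side, by the limma test of that difference. Over all 12388 genes 11.7% were called by that test. The 14 include the 4 largest called differences of each sign, which were named for their result in it. The count was therefore in part fixed by how the genes were chosen. The difference was more negative at week 4 for Saa3 (-3.77), Serpina3h (-3.23), Cxcl13 (-3.02), Hp (-2.57), Ccl8 (-2.29), Itih4 (-1.59), Osmr (-0.87) and Csf1r (-0.48), all on the log2 scale. It was more positive at week 4 for Acta1 (2.58), Mylk4 (2.42), Retnla (2.27), Pdk4 (2.14), Kcnip2 (1.15) and Myh6 (0.75).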

How the results depend on the processing

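Of 141 genes that the text names or that were followed with it and that were called at week 4, 88 kept the call on leaving out each of the 10 libraries in turn and 53 lost it at least once, and 67 kept it under all other alternatives run. With TPM as deposited 1364 genes were higher and 210 lower, with a median difference of 0.0775, and 992 of the 1380 calls were shared. The fit on 61 libraries called 991 lower, and without CAC replicates 2 and 4 the counts were 433 higher and 245 lower. Leaving out 1 library gave 493 to 878 higher and 307 to 748 lower genes. Against week 2 a filter of 5 TPM gave 1 gene and array weights 4, and leaving out 1 library gave 0 to 4. Against week 6 the filter gave 4, array weights 384 and a fit of the 2 weeks alone 25, and leaving out 1 library gave 0 to 19. Against week 8 array weights gave 2909 and the 2 weeks alone 472, and leaving out 1 library gave 940 to 2548. CAC against mock hearts gave 516 genes with the left-out mock library and 804 to 1890 on leaving out 1 library. NCAC against mock hearts gave 0 genes with TPM as deposited and 0 with a filter of 5 TPM (limma), and 1 to 2 on leaving out 1 library. Replicate numbers are shared between groups, but deviations of same-numbered libraries correlated at -0.10 to 0.46, over 0.1 in 3 of 5 pairs, and 1 of 5 CAC libraries correlated best with its own number, so the number was taken as a name. With a replicate block 667 genes were higher and 505 lower, CAC against mock gave 906 and NCAC against mock 0; 5 collagen genes were called lower, 3 metallothionein and zinc genes higher and Actc1 lower. Signs reversed for 3 genes that were not called, namely Fkbp5 without CAC replicates 2 and 4 (-0.24), Retnla on leaving out 1 library (-0.058 to 0.36) and Dbp on leaving out 1 library (-0.089 to 0.30). The cause was not tested for any of these. Genes with few reads had less precise values at these depths.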
